A study of Mus musculus with 14 samples.

Results

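A set of 7 red blood cell genes was followed through the lungs of mice that had received carbon fibres: Hba-a1, Hbb-bt, Alas2, Slc4a1, Epb42, Bpgm and Tspo2. They were selected on measured values of these same arrays, since earlier results had shown red cell genes higher in fibre-treated lung, so their differences from the control are given as a description and without a test. All probes that map to them through a RefSeq transcript were taken, which gave 12 probes of 41174 for 7 genes of 17178, and all 12 probes passed the filter on dim signals. The mice were male C57BL/6N, and lung RNA was prepared 6 months after instillation into the trachea. Ctrl (3 lungs) received phosphate-buffered saline (PBS). The fibre groups received 200 µg of carbon fibre per mouse, as VCF (4 lungs, fibre before recycling), CCF (3 lungs, fibre after carbonization) or RCF (4 lungs, fibre after firing). The labels call the lungs independent biological samples, with 1 lung on each of 14 arrays. The age of the mice and whether blood was flushed from the lungs are not given in the sources used here.

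The genes cover the main parts of a red cell. Hba-a1 and Hbb-bt encode an alpha and a beta chain of adult haemoglobin, Alas2 is the erythroid enzyme for the rate-limiting step of haem synthesis, and Bpgm makes 2,3-bisphosphoglycerate, which lowers the oxygen affinity of haemoglobin. Slc4a1 (band 3) is the anion exchanger of the membrane, Epb42 (protein 4.2) ties band 3 to the skeleton under the membrane, and Tspo2 is a cholesterol-binding protein of erythroid precursors. Mature red cells have no nucleus, and young ones (reticulocytes) still carry globin RNA, so blood in a lung brings these transcripts with it. In whole tissue, more cells of a type and more RNA per cell cannot be told apart.

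Promoters of 4 of these genes are shown: those of Hba-a1, Hbb-bt and Alas2, which rise and fall together over the arrays as described below, and that of Tspo2, which follows Slc4a1 and Epb42 more closely. Each line is the 250 bases before the RefSeq start (build GRCm38.p6), 5′ to 3′ on the strand of the gene, for Hba-a1 at chr11:32283422-32283671 (plus strand), Hbb-bt at chr7:103813924-103814173 (minus), Alas2 at chrX:150547167-150547416 (plus) and Tspo2 at chr17:48451502-48451751 (minus). Capitals mark 2 motifs searched on both strands, the GATA motif (AGATAA as well as its variants AGATAG or TGATAA or else TGATAG) and the CACCC box (CACCC), which are known in erythroid promoters.
Hba-a1: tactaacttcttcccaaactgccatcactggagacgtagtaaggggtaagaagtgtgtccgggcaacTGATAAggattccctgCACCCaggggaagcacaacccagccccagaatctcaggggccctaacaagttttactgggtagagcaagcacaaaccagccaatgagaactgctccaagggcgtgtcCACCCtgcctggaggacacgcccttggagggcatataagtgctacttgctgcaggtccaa
Hbb-bt: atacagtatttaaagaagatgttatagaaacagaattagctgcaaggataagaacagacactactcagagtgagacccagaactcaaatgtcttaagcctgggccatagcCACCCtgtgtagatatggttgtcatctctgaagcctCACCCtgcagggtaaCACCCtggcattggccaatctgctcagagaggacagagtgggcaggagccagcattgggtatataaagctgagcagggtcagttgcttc
Alas2: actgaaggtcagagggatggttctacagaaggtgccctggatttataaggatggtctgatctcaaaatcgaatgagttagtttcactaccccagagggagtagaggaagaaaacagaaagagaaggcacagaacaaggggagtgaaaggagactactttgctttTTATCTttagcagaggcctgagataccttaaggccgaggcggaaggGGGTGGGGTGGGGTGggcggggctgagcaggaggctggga
Tspo2: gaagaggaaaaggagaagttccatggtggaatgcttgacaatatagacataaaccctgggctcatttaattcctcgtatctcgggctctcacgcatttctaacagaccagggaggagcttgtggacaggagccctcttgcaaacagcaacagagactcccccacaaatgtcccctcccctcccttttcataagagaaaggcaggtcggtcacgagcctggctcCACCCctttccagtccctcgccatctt

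Of the 6 members with a promoter in the RefSeq table, all but Slc4a1, the GATA motif was in 3 (Hba-a1, Alas2 and Epb42), against 26.5% of 32851 promoters of the same length. CACCC was in 4 (Hba-a1, Hbb-bt, Alas2 and Tspo2), against 52.0% of all. Both together were in 2, Hba-a1 and Alas2, against 11.8% of all. The Hba-a1 stretch also holds CCAAT 88 bases and TATAA 27 bases before the start, and that of Hbb-bt holds CCAAT 75 and TATAA 28 bases before it. CCAAT and TATAA were found, on either strand, in 3 and 4 of the 6 member promoters and in 33.9% and 22.8% of all. These letters are a description of the sequence and say nothing of which factor binds there.

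Values are log2 of the background-subtracted Cy3 intensity minus the 75th percentile of the array, so that a level of 0 is the intensity of the 75th percentile. That percentile ran from 725 to 1346 per array, 63.1% to 70.5% of probes stood well above background, and no spot was saturated. All 8 lung markers of the list, among them Sftpc, the surfactant protein C of alveolar type II cells (level 8.99 in Ctrl), stood well above background on every array. At an adjusted p under 0.05 (limma, Benjamini-Hochberg over 29273 probes), 3 probes passed in VCF minus Ctrl (0.0102%). In each of CCF minus Ctrl, RCF minus Ctrl, CCF minus VCF, RCF minus VCF and RCF minus CCF, 0 passed (0%). At an unadjusted p under 0.05, 2417 probes passed in VCF minus Ctrl, 1930 in CCF minus Ctrl, 1564 in RCF minus Ctrl, 1700 in CCF minus VCF, 1548 in RCF minus VCF and 2312 in RCF minus CCF. Some arrays stood apart in genes of other tissues. The liver list averaged 3.89 above the Ctrl mean at its highest in CCF and 3.85 in RCF, the thymus list 5.75 in CCF, and the adipose list 2.54 in VCF.

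Haemoglobin RNA was higher in the lungs that had received fibres than in the PBS lungs. Hba-a1 had levels of 6.76, 7.20 and 6.29 in Ctrl replicates 1 to 3. In VCF replicates 1 to 4 they were 8.41, 8.48, 8.48 and 8.64, in CCF replicates 1 to 3 they were 8.84, 7.80 and 7.32, and in RCF replicates 1 to 4 they were 7.96, 8.42, 8.30 and 8.09. All 11 fibre arrays lay above all 3 Ctrl arrays. The lowest fibre array, CCF replicate 3, was just above the highest Ctrl array, replicate 2. The group difference from Ctrl was 1.75 (SE 0.30) on the log2 scale for VCF, 1.23 (SE 0.32) for CCF and 1.44 (SE 0.30) for RCF, which are 3.37-fold, 2.35-fold and 2.71-fold. VCF lungs were close to each other (SD 0.10, n = 4), while CCF lungs spread most (SD 0.78, n = 3).

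Hbb-bt was read by 4 probes, and all 4 were higher in each fibre group. For the probe with the strongest signal, A_51_P374476, the levels were 8.26, 8.40 and 7.72 in Ctrl, 9.10, 8.97, 8.85 and 8.94 in VCF, 9.21, 8.62 and 8.16 in CCF, and 8.66, 8.97, 9.09 and 8.92 in RCF. Only CCF replicate 3 fell among the Ctrl arrays, so VCF and RCF were apart from Ctrl at this probe and CCF was not. The differences from Ctrl here were 0.84 (SE 0.23) for VCF, 0.54 (SE 0.24) for CCF and 0.78 (SE 0.23) for RCF. The probe with the weakest signal, A_51_P374468, gave differences of 2.49 (SE 0.38), 1.53 (SE 0.41) and 1.92 (SE 0.38) in the same order. Its levels were 4.52, 4.52 and 3.65 in Ctrl, 6.52, 6.97, 6.63 and 6.76 in VCF, 6.88, 5.61 and 4.80 in CCF, and 5.93, 6.36, 6.24 and 6.07 in RCF. At this probe all 11 fibre arrays lay above all Ctrl arrays, and every RCF array lay below every VCF array. By size, its VCF difference ranked 7 of the 29273 probes from the top, and that of A_51_P374476 ranked 1295. Probes A_52_P213909 and A_52_P260346 lay between, with 1.51 and 1.34 for VCF, 1.04 and 0.91 for CCF, and 1.24 and 1.09 for RCF. The mean over the 4 probes was 1.55 for VCF, 1.00 for CCF and 1.26 for RCF. So the size of the Hbb-bt difference depends on the probe, from 0.84 to 2.49 in VCF. The probe with the strongest signal, at which the gene is read below, gave the smallest difference in each fibre group. Near-identical copies of the alpha and beta globin genes can share these probes, so the values belong to the adult alpha and beta globins rather than to 1 gene copy.

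Alas2 followed the globins. Its levels were 1.57, 2.06 and 0.71 in Ctrl, 3.20, 3.77, 3.69 and 4.21 in VCF, 4.23, 2.67 and 2.10 in CCF, and 2.80, 3.24, 3.35 and 3.15 in RCF. All 11 fibre arrays again lay above all Ctrl arrays, with CCF replicate 3 the lowest of them and only just above Ctrl replicate 2. The difference from Ctrl was 2.27 (SE 0.44) for VCF, 1.55 (SE 0.48) for CCF and 1.69 (SE 0.44) for RCF, or 4.83-fold, 2.93-fold and 3.23-fold. By size, the VCF difference ranked 13 of the 29273 probes from the top.

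Bpgm was higher by less. At its stronger probe, A_52_P401640, the levels were 2.04, 2.37 and 2.22 in Ctrl, 2.67, 2.76, 3.15 and 3.19 in VCF, 3.12, 2.38 and 2.39 in CCF, and 2.35, 2.63, 2.42 and 2.52 in RCF. VCF stood apart from Ctrl. CCF replicates 2 and 3 lay just above Ctrl replicate 2, and RCF replicate 1 just below it. The differences were 0.73 (SE 0.19) for VCF, 0.42 (SE 0.21) for CCF and 0.27 (SE 0.19) for RCF. The second probe, A_51_P108408, gave 0.74, 0.32 and 0.36. There VCF again stood apart from Ctrl, but CCF replicate 3 lay below every Ctrl array, and Ctrl replicate 1 lay above 4 of 11 fibre arrays.

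The membrane genes Slc4a1 and Epb42 and the precursor gene Tspo2 did not separate the fibre arrays from Ctrl. Slc4a1 had levels of -0.70, -2.17 and -2.91 in Ctrl, -1.52, -0.86, -0.93 and -0.45 in VCF, -0.03, -2.25 and -1.91 in CCF, and -2.14, -1.49, -1.75 and -0.73 in RCF. Ctrl replicate 1 stood above 9 of the 11 fibre arrays, Ctrl replicate 2 above CCF replicate 2 alone, and Ctrl replicate 3 below them all. The difference from Ctrl was 0.99 for VCF, 0.53 for CCF and 0.40 for RCF, with SE of 0.58, 0.62 and 0.58.

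Tspo2 had levels of -1.28, -2.08 and -2.35 in Ctrl, -1.52, -1.17, -1.0 and -0.74 in VCF, -0.62, -2.03 and -2.04 in CCF, and -1.71, -1.62, -1.52 and -1.16 in RCF. Here too Ctrl replicate 1 was high, above 6 of the 11 fibre arrays, and the other Ctrl arrays were below every fibre array. The differences from Ctrl were 0.79 (SE 0.35) for VCF, 0.33 (SE 0.37) for CCF and 0.40 (SE 0.35) for RCF.

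Epb42 was close to background. At its stronger probe, A_52_P73126, 2 of 3 Ctrl, 3 of 4 VCF, 1 of 3 CCF and 3 of 4 RCF spots were well above background. The levels there were -5.32, -6.45 and -7.05 in Ctrl, -6.40, -5.89, -6.14 and -5.62 in VCF, -5.04, -6.61 and -6.57 in CCF, and -6.04, -6.90, -5.86 and -5.30 in RCF. Ctrl replicate 1 stood above 9 of 11 fibre arrays, as for Slc4a1. The differences from Ctrl, 0.27 for VCF, 0.20 for CCF and 0.25 for RCF, were smaller than their SE of 0.48, 0.52 and 0.48. The second probe, A_51_P122535, was well above background on 1 of 3 Ctrl, 2 of 4 VCF, 1 of 3 CCF and 1 of 4 RCF arrays, and gave differences of 0.53, 0.24 and 0.42. Its spot on RCF replicate 2 was left out as an outlier, so that RCF rests on 3 arrays there.

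**Figure D1:**
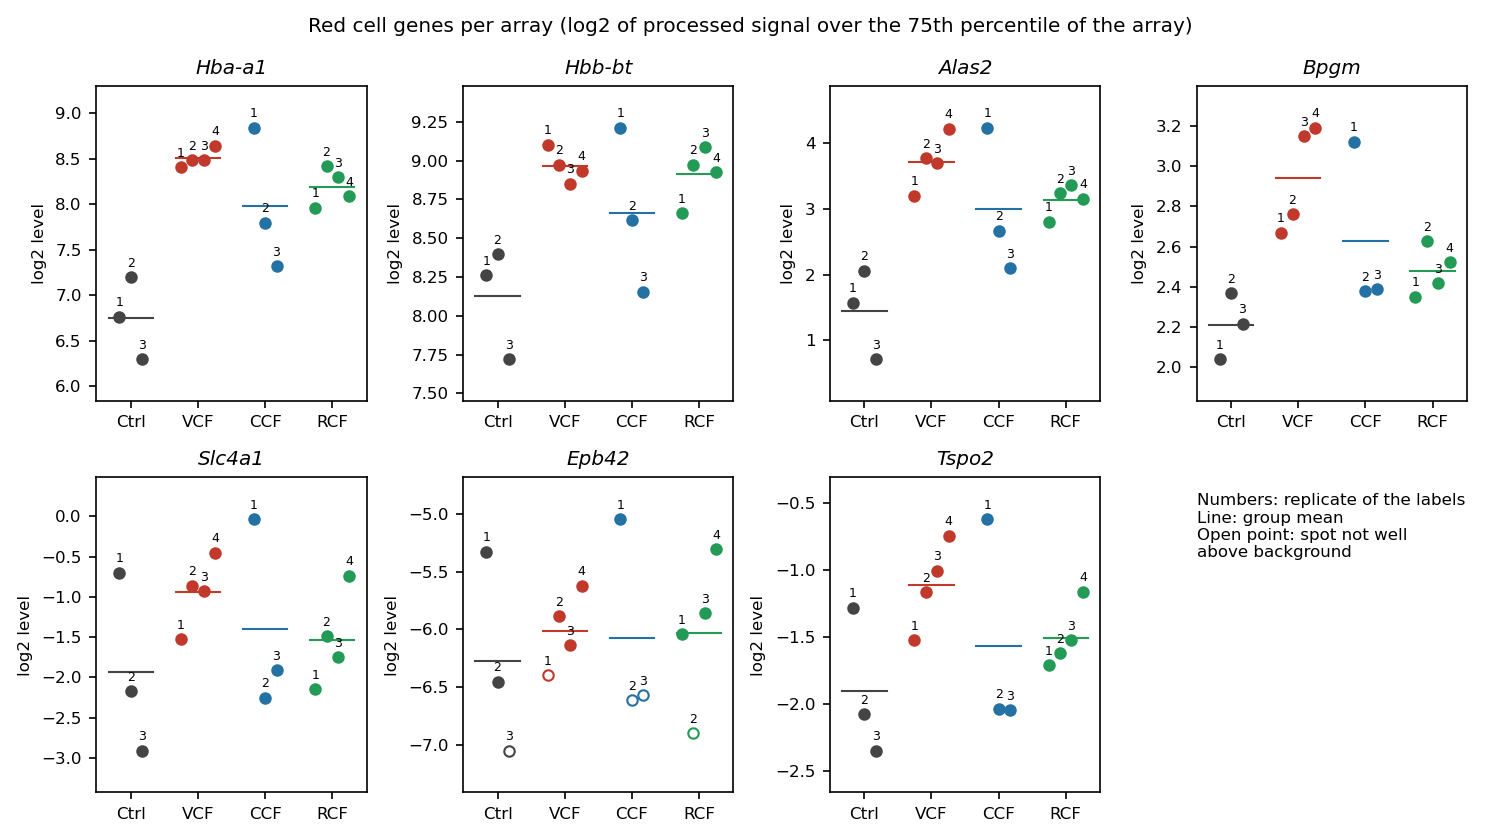
Level of each of the 7 genes on each array (y axis, log2 of processed signal over the 75th percentile of the array) by group (x axis), at the probe with the strongest signal. Points are arrays with their replicate number, lines are group means, and open points were not well above background. In Hba-a1 and Alas2 all fibre arrays lie above all Ctrl arrays, while Ctrl replicate 1 lies above 9 of 11 fibre arrays in Slc4a1 and Epb42 and above 6 of 11 in Tspo2.

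At the strongest probe of each gene, all 7 genes had a higher mean in each fibre group than in Ctrl, and so had all 12 probes. The 3 comparisons share the Ctrl arrays, and these contrasts chose the genes. The median difference over the 7 genes was 0.84 for VCF, 0.53 for CCF and 0.40 for RCF, beside 0.01, -0.01 and 0.01 over all 29273 probes. Every VCF array lay above every Ctrl array for 4 of the 7 genes (Hba-a1, Hbb-bt, Alas2 and Bpgm), which 6.02% of all probes did. For CCF this held for 3 (Hba-a1, Alas2 and Bpgm, 4.75% of all probes), and for RCF for 3 (Hba-a1, Hbb-bt and Alas2, 4.18% of all probes). The second Bpgm probe did not separate CCF from Ctrl. Every one of the 11 fibre arrays lay above every Ctrl array for Hba-a1 and Alas2, and 0.41% of all probes did so.

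**Figure D2:**
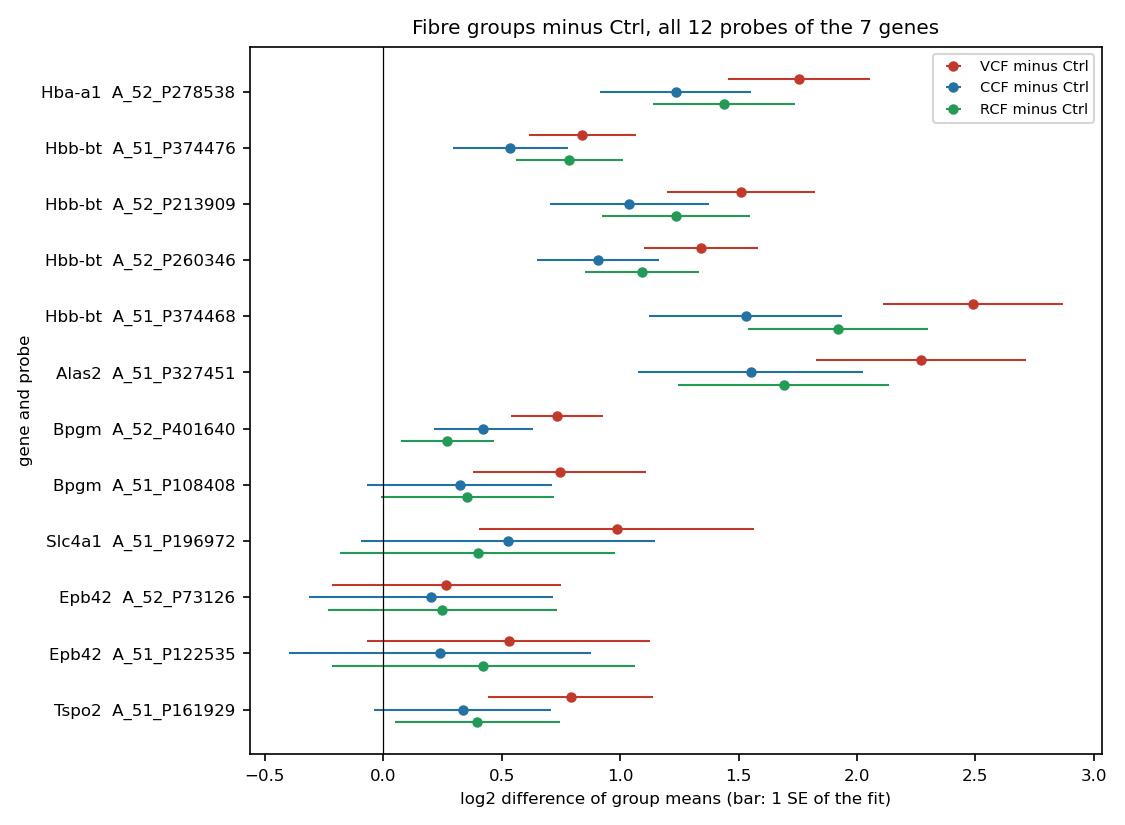
Difference of each fibre group from Ctrl (x axis, log2) for the 12 probes of the 7 genes (y axis), with bars of 1 SE. All points lie above 0, and the 4 Hbb-bt probes differ among themselves, from 0.84 to 2.49 in VCF.

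The arrays were compared in turn within each glass slide, since each of the 4 slides had a scan session of its own. On slide 1, the difference of Alas2 from the Ctrl array of that slide was 2.98 for VCF, 1.38 for CCF and 2.09 for RCF. On slide 2 it was 2.16 for VCF and 1.10 for RCF, and on slide 3 it was 2.20 for VCF, 2.66 for CCF and 1.78 for RCF. Hba-a1, Hbb-bt and Bpgm were likewise higher than the Ctrl array of their slide in all 8 such pairs, with Hba-a1 between 0.89 and 2.19, Hbb-bt between 0.44 and 1.13, and Bpgm between 0.13 and 1.08. The membrane genes were not. On slide 3, which holds Ctrl replicate 1, Slc4a1 was lower than Ctrl in VCF (-0.16) and RCF (-1.05), Epb42 in VCF (-0.56) and RCF (-0.54), and Tspo2 in RCF (-0.24). Slide 4 holds no Ctrl array. For Alas2 and Hba-a1 the direction within slides was fixed, because all fibre arrays lay above all Ctrl arrays, and only the sizes are informative. For Hbb-bt and Bpgm it was nearly fixed. Only CCF replicate 3 for Hbb-bt and RCF replicate 1 for Bpgm lay below any Ctrl array. These genes were also chosen by their difference from the same Ctrl arrays.

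Over the arrays, 6 of the 7 members were described as 2 sets that overlap in their pattern, and Bpgm was placed in neither. Within groups (each value minus its group mean, 14 arrays), Slc4a1 and Tspo2 correlated at r = 0.96, Epb42 and Tspo2 at 0.90 and Epb42 and Slc4a1 at 0.87. Alas2 and Hba-a1 correlated at 0.96, Hba-a1 and Hbb-bt at 0.92, and Alas2 and Hbb-bt at 0.85. Pairs across the sets ran from 0.50 (Epb42 and Hba-a1) to 0.79 (Alas2 and Tspo2), and the means of the 2 sets correlated at 0.69. Bpgm correlated at 0.77 with Alas2, 0.74 with Hba-a1 and 0.48 with Hbb-bt. With the other set it correlated at 0.64 (Tspo2), 0.53 (Slc4a1) and 0.34 (Epb42). These are descriptions of 14 arrays that share slide and scaling, with no test. The mean difference from the Ctrl mean was then taken over each set on each array. For Hba-a1, Hbb-bt and Alas2 it was 0.09, 0.44 and -0.53 in Ctrl, between 1.46 and 1.82 in VCF, between 1.03 and 1.47 in RCF, and 1.99, 0.92 and 0.41 in CCF. For Slc4a1, Epb42 and Tspo2 it was 0.93, -0.20 and -0.74 in Ctrl, between 0.22 and 1.10 in VCF, between 0.03 and 0.97 in RCF, and 1.47, -0.26 and -0.14 in CCF. So Ctrl replicate 1 was as high as fibre arrays in the second set and not in the first, and CCF replicate 1 was the highest array in both.

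**Figure D3:**
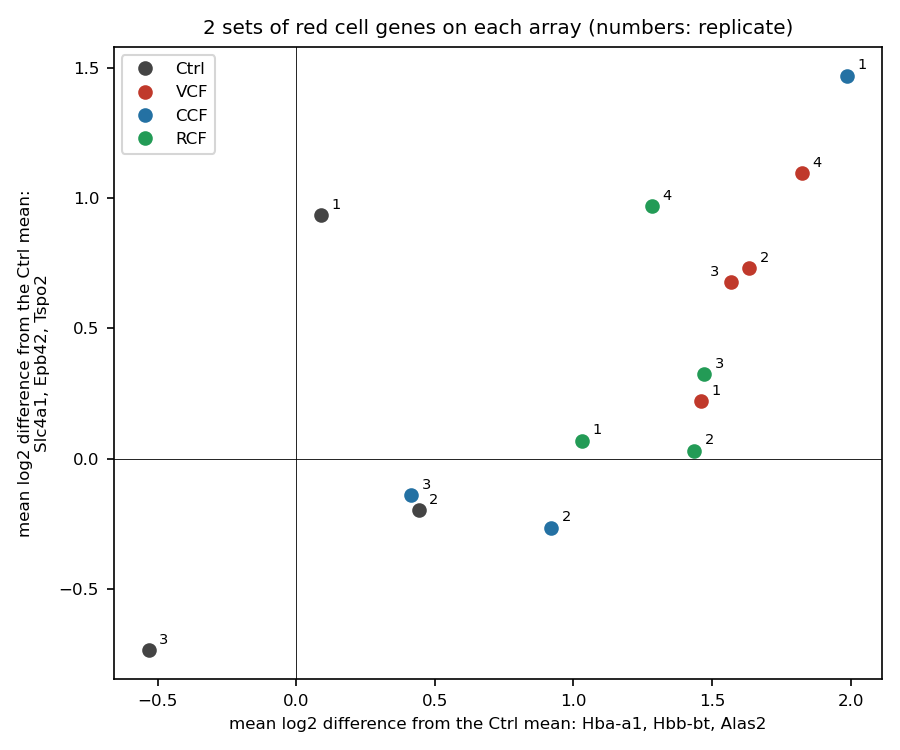
Mean log2 difference from the Ctrl mean of Hba-a1, Hbb-bt and Alas2 (x axis) and of Slc4a1, Epb42 and Tspo2 (y axis), 1 point per array, with the replicate number. Ctrl replicate 1 is at 0.09 on the x axis and at 0.93 on the y axis, and CCF replicate 1 is at the top right.

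Leaving out single arrays turned the sign of some differences of Slc4a1, Epb42 and Tspo2. Without Ctrl replicate 1, the Slc4a1 difference rose to 1.60 for VCF, 1.14 for CCF and 1.01 for RCF. Without Ctrl replicate 3, that of Slc4a1 in RCF was -0.09, and that of Epb42 was -0.12 in VCF, -0.19 in CCF and -0.14 in RCF. Without CCF replicate 1, the CCF differences were -0.16 for Slc4a1, -0.14 for Tspo2 and -0.32 for Epb42, while they stayed above 0 for Alas2 (0.94), Hba-a1 (0.81), Hbb-bt (0.26) and Bpgm (0.18). For Alas2 and Hba-a1, all fibre arrays lay above all Ctrl arrays, so leaving out 1 array could not turn a sign. Over these 14 fits their lowest differences from Ctrl were 0.94 and 0.81.

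The forms of the fibre were then compared with each other, which the choice of genes did not use directly, though it used the same fibre arrays. CCF minus VCF and RCF minus VCF share the VCF arrays. The 7 genes also correlated with each other within groups, so they do not count as independent results. All 7 genes had lower means in CCF and in RCF than in VCF, with medians of -0.46 and -0.39 over the genes and -0.02 and -0.01 over all probes. None of the 7 passed in these 2 comparisons or in RCF minus CCF (limma, lowest adjusted p 0.892, 0.902 and 0.812). For Alas2 the difference was -0.72 in CCF minus VCF (95% interval -1.68 to 0.25) and -0.58 in RCF minus VCF (-1.47 to 0.31). For Hba-a1 it was -0.52 (-1.17 to 0.13) and -0.31 (-0.92 to 0.29). These intervals are wide, so they do not show that the fibres acted alike.

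By unadjusted p at the strongest probe of each gene, Bpgm came nearest to a difference between fibres. Every RCF array lay below every VCF array at its stronger probe, as for 2.52% of all probes, with a difference of -0.46 (95% interval -0.85 to -0.07). Its unadjusted p was 0.0245, a threshold of 0.05 that 3.75% of all probes passed downwards, and its adjusted p from limma was 0.902. The second Bpgm probe, A_51_P108408, did not separate RCF from VCF. Its difference was -0.39 (-1.12 to 0.35), with an unadjusted p of 0.273 from limma. The weakest Hbb-bt probe, A_51_P374468, differed by -0.96 (-1.79 to -0.14) in CCF minus VCF, with an unadjusted p of 0.0260 and an adjusted p of 0.796 from limma, where 4.61% of all probes passed the unadjusted threshold downwards. The other Hbb-bt probes differed by less there. A_51_P374476, A_52_P213909 and A_52_P260346 gave -0.30, -0.47 and -0.43, with unadjusted p of 0.203, 0.158 and 0.0937 from limma. In RCF minus CCF, 5 of 7 genes were higher in RCF, with a median of 0.06. Without CCF replicate 1 that median was 0.55, and the median of CCF minus VCF was -0.93 in place of -0.46. Without VCF replicate 1, CCF replicates 2 and 3 and RCF replicate 1, which are the arrays highest in genes of liver, thymus or fat, CCF rests on replicate 1 alone. The CCF minus VCF median was then 0.34, the RCF minus CCF median -0.81 and the CCF minus Ctrl median 1.28.

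Other genes of the red cell were read from 7 lists of 67 genes, of which 57 had a tested probe. In VCF, CCF and RCF minus Ctrl, 33, 37 and 36 of them were higher, with medians of 0.04, 0.08 and 0.10. At an unadjusted p under 0.05, 10, 6 and 12 were higher, beside 6.06%, 3.94% and 2.80% of all probes. By the same threshold 3, 3 and 0 were lower, beside 2.20%, 2.65% and 2.54%. None passed after adjustment (limma). Genes named from a list were taken from its 2 with the smallest unadjusted p over the average of the fibre groups minus Ctrl. Their separation from Ctrl is therefore in part a result of that choice. Of all probes, 0.41% had every fibre array above every Ctrl array.

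Among the other globins, 4 of 10 listed genes were tested, and all 4 were higher in each fibre group (medians 1.59, 0.65 and 1.08 in VCF, CCF and RCF), although with normexp background correction the medians were 0.38, -0.30 and 0.21. Hbb-bh1, an embryonic beta-like globin, was not well above background on any Ctrl array and was so on 3 of 4 VCF, 2 of 3 CCF and 3 of 4 RCF arrays. It passed the filter on dim signals only through the fibre groups, where it is high, so its direction and the count of 4 are in part fixed by the filter. With a floor set for Ctrl, its mean was 3.39-fold higher in VCF, 2.58-fold in CCF and 2.81-fold in RCF (limma adjusted p without the floor 0.307, 0.653 and 0.637). Such a fold sets the mean of the brighter group against, on each Ctrl array, the higher of the own signal of the probe and the lowest signal well above background. The fibre means include arrays not well above background, so these folds are not strict lower bounds. VCF replicate 2 (-7.23) lay among the Ctrl arrays. Hbq1b, a theta globin, was higher by 1.24, 0.79 and 0.74, with every fibre array above every Ctrl array. Globin probes can take up RNA of a sister gene, so the source of these low signals is uncertain.

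Haem synthesis outside Alas2 did not follow it. Of 10 other genes of haem synthesis, 3 were higher and 7 lower in each fibre group, with medians of -0.13, -0.17 and -0.04. Alad, the enzyme of the step after that of Alas2, differed by -0.28 in VCF, -0.40 in CCF and -0.16 in RCF (lowest limma adjusted p 0.761). Of 6 genes of iron uptake and erythropoietin signalling, 3 were higher and 3 lower. Slc25a37 (mitoferrin 1), the iron importer of erythroid mitochondria, had differences of 0.79, 0.50 and 0.64, and Epor, the erythropoietin receptor, of -0.54, -0.53 and -0.15 (lowest limma adjusted p 0.410 and 0.320).

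In the membrane skeleton, 14 of 15 genes were tested, and 9, 11 and 11 were higher, with medians of 0.28, 0.26 and 0.27 (0.18, -0.47 and 0.09 with normexp). Sptb, the erythroid beta spectrin, was higher by 0.76 in VCF, 0.73 in CCF and 0.67 in RCF, with every fibre array above every Ctrl array (limma adjusted p 0.320, 0.637 and 0.644).

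Red cell enzymes (8 of 8 tested) had medians of 0.02, 0.02 and 0.05. Gpx1, glutathione peroxidase 1, differed by -0.17, -0.11 and -0.13, and Car1, carbonic anhydrase 1, by 0.44, 0.13 and -0.06. Erythroid transcription factors (8 of 9 tested) had medians of 0.07, 0.11 and 0.17. Gata1 differed by 0.36, 0.56 and 0.42 and Gfi1b by 0.32, 0.50 and 0.43, with a lowest limma adjusted p of 0.808 and 0.795. Genes of reticulocyte maturation (7 of 9 tested) had medians of 0.18, 0.16 and -0.12. Ube2o, a ubiquitin ligase that clears ribosomal proteins in reticulocytes, was higher by 0.64, 0.64 and 0.48, with every fibre array above every Ctrl array (limma adjusted p 0.368, 0.637 and 0.909).

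**Figure D4:**
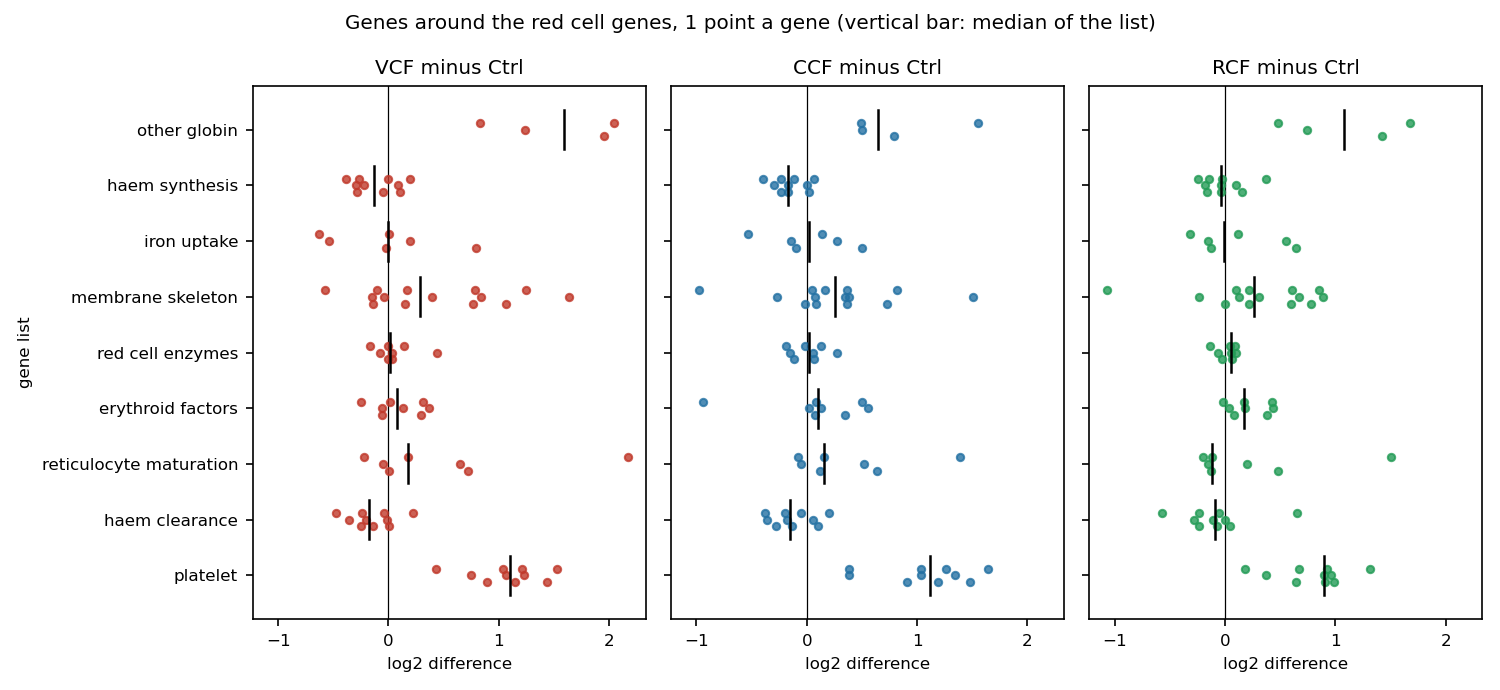
Difference from Ctrl (x axis, log2) of each tested gene in 9 lists (y axis) for VCF, CCF and RCF. Each point is a gene and each vertical bar the median of its list. All 4 other globin genes and all 10 platelet genes lie above 0 in the 3 panels, and the haem synthesis list lies around 0.

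Genes that clear haem and iron from broken red cells were not higher. Of 10 such genes, 2, 3 and 3 were higher, with medians of -0.17, -0.16 and -0.09. Hmox1, the haem oxygenase that breaks haem down, differed by -0.48 (SE 0.14) in VCF, -0.36 (SE 0.15) in CCF and -0.57 (SE 0.14) in RCF. Blvra, the biliverdin reductase of the next step, differed by -0.24, -0.38 and -0.28. Both were below every Ctrl array on every fibre array, as 0.321% of all probes were, and neither passed (lowest limma adjusted p 0.351 for Hmox1 and 0.547 for Blvra).

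Genes of other blood cells moved with the members in part. All 10 tested platelet genes of 12 were higher in each fibre group, with medians of 1.10, 1.11 and 0.90. Without Ctrl replicate 3 these medians were 0.54, 0.48 and 0.19, and without Ctrl replicate 2 they were 1.65, 1.84 and 1.45. Gp5 had differences of 1.14, 1.48 and 0.89, and Gp1bb of 1.06, 1.04 and 0.65. Both encode chains of the platelet receptor for von Willebrand factor. No platelet gene passed after adjustment (limma), and 5, 3 and 0 were higher at an unadjusted p under 0.05, beside 6.06%, 3.94% and 2.80% of all probes. The mean difference of the list from Ctrl ran from -1.15 to 1.04 in Ctrl, from 0.67 to 1.73 in VCF, from 0.47 to 1.91 in CCF and from 0.29 to 1.25 in RCF, so the groups overlapped. Its lowest array was Ctrl replicate 3, and its highest was CCF replicate 1, as in the members. All 10 platelet genes were well above background on every array. Their part in the result was not tested.

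Neutrophil genes ran otherwise. Their list had 10 tested genes and medians of -0.68, -0.19 and -0.74 (-0.01, 0.43 and -0.20 without Ctrl replicate 1), with Lcn2 at -0.88, -0.24 and -1.22 and Mmp8 at -1.09, -0.53 and -1.14. Its mean was highest on Ctrl replicate 1, at 1.09 above the Ctrl mean, and from -1.33 to 0.32 on the fibre arrays. Ctrl replicate 1 was also the Ctrl array highest in Slc4a1, Epb42 and Tspo2, and the part of neutrophils in that was not tested. Genes of B cells, T cells and lung had medians between -0.24 and 0.14 in the 3 comparisons. Over the average of the fibre groups, the leading genes of these lists were Cd79a (-0.25), Cd3d (-0.26), Cd2 (-0.12), Cdh5 (0.17) and Sftpc (0.12). The corresponding values were Fgb 2.33 and Alb 1.34 for liver, Rag1 1.75 and Dntt 0.61 for thymus, Plin1 0.82 and Adipoq 0.72 for adipose tissue, and Myl4 0.76 and Actc1 0.27 for cardiac muscle. Rag1 was well above background on 0 of 3 Ctrl, 0 of 4 VCF, 2 of 3 CCF and 1 of 4 RCF arrays. It passed the filter only through CCF and RCF, so its size is uncertain. Fgb was so on 1 of 3 Ctrl arrays and highest on CCF replicate 2 (-0.64) and RCF replicate 1 (-1.16).

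**Figure D5:**
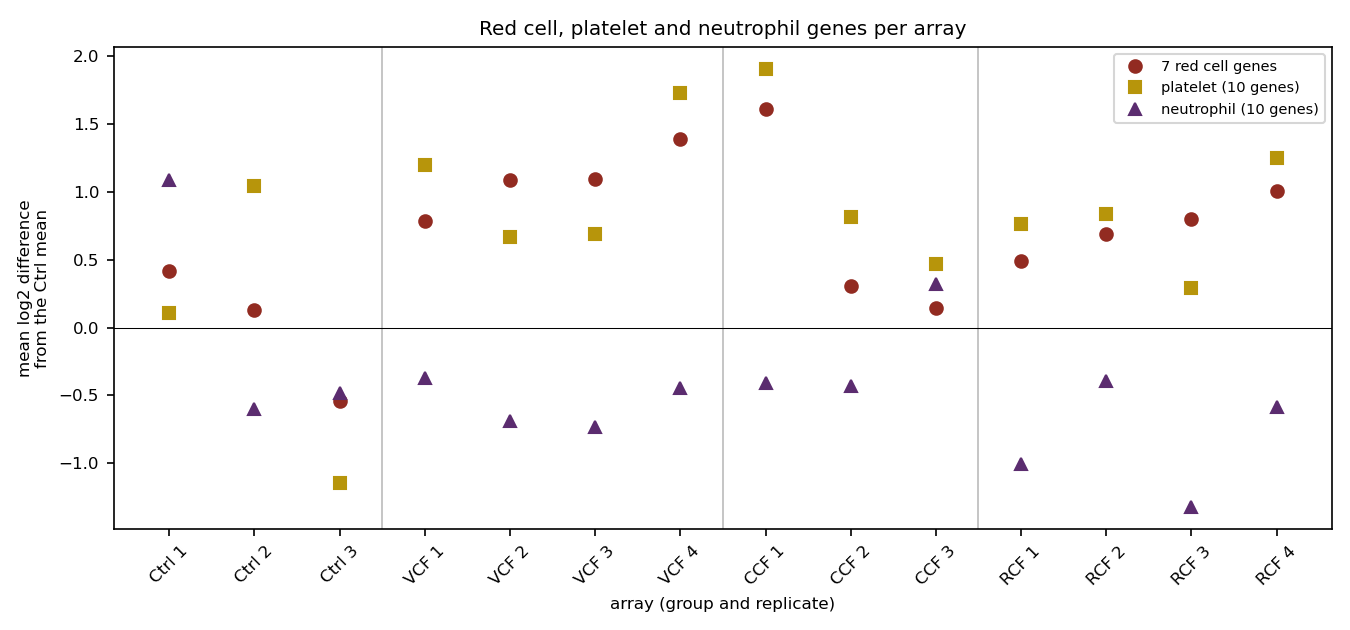
Mean log2 difference from the Ctrl mean (y axis) of the 7 red cell genes, 10 platelet genes and 10 neutrophil genes on each array (x axis). The red cell genes run from -0.54 in Ctrl replicate 3 to 1.61 in CCF replicate 1, which are also the lowest and highest arrays of the platelet genes.

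Many probes rose and fell with the members from array to array. Within groups, 324 of 29151 probes correlated with the mean of the 7 genes at r above 0.8. That count includes probes of the members themselves, such as that of Tspo2 (0.96), which are part of the mean. Apart from the members, the 10 most alike named genes were Rmc1, Snx27, C5ar1, Scarb2, H2-M3, Galnt4, Sowahc, Ghitm, Rnd3 and Rab27a, with r from 0.97 to 0.92 over 14 arrays. Their differences from Ctrl had both signs. Rmc1 differed by -0.27 in VCF, -0.23 in CCF and -0.17 in RCF, and C5ar1, the receptor for complement C5a, by -0.58, -0.65 and -0.34. Snx27 was higher, by 0.54, 0.10 and 0.86, and was well above background on 3 of the 14 arrays.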

How the data were processed

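Per the labels, Cy3-labelled RNA was hybridized, 1 lung per array. The deposited scanner files hold intensity values per spot, background-subtracted by the scanner software (per the file headers, Feature Extraction 10.7.3.1) and not normalized between arrays. A second, smaller file from the authors gives log2 values. Its 27496 probes equal log2 of the processed intensity minus 1 constant per array, close to the 75th percentile (for at least 99.6% of probes within 0.01). It was used as an alternative.

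Here log2 of the processed intensity was taken minus each array's 75th percentile over non-control probes. Spots flagged as outliers (61 to 254 per array) were left out, and 43379 spots gave 41174 probes. Probes well above background on at least 3 of 14 arrays were tested. Symbols came from RefSeq accessions (GRCm38.p6), with 24844 probes matched and 16330 not. The array grid was built on an older assembly, and no probe coordinates are printed. A gene was read at its strongest tested probe. limma 3.58.1 in R 4.3.3 (data.table version 1.17.8) fitted all 4 groups, with 10 residual and 2.39 prior degrees of freedom, two-sided, with Benjamini-Hochberg adjustment over 29273 probes. On simulated arrays, 58% of changes of 1 and 90% of changes of 2 (log2) were found in RCF minus VCF over 29151 probes, with 8 unchanged probes called. The changes were put on probes drawn at random, with noise independent between arrays and no slide effect. They do not give the share for the members. At the strongest probe of each member, the SE in RCF minus VCF ran from 0.18 (Bpgm) to 0.54 (Slc4a1). The number of arrays limits the precision. Figures used Python 3.11.15, matplotlib 3.10.9 and pandas 2.3.3.

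The members and gene lists were chosen with earlier results of these data known. Text names the members, the 2 genes of each list with the smallest p over the average of the fibre groups minus Ctrl, and the 10 genes most alike the members within groups. Some genes under this rule are not reported here. Replicate numbers did not pair the arrays: 6 of 19 same-number pairs correlated above 0.1. Alternatives were quantile normalization, normexp on median signals (offset 50, as the files hold no mean signal), the deposited table, other dim-probe filters (none, or 7 arrays), the mean over probes, slide and replicate blocks, a fit of 2 groups, and leaving out arrays. Keeping flagged spots was added after the data were seen.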

Additional observations from a re-analysis of the deposited data

How the results depend on the processing

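Hba-a1 and Alas2 stayed higher than Ctrl in each fibre group under quantile normalization, normexp, the authors' deposited table and both filters. The same held with the mean over probes, the blocks and the fit of 2 groups. Over all alternatives that do not leave out 1 array, Hba-a1 ran from 1.14 to 2.09 and Alas2 from 1.52 to 2.79. Both upper ends are CCF minus Ctrl without the 4 arrays that stand apart, where CCF rests on replicate 1 alone. Normexp moved the median of all probes to -0.23 in CCF minus Ctrl, and there Epb42 was -0.65, near background. Without the 4 arrays that stand apart, the member medians were 1.28 (CCF minus Ctrl), 0.34 (CCF minus VCF) and -0.81 (RCF minus CCF), and CCF minus VCF was 0.34 for Alas2 and 0.30 for Hba-a1.

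Within slide 1, member medians were 1.34 (VCF minus Ctrl), 0.94 (RCF minus Ctrl), -0.98 (CCF minus VCF) and 0.50 (RCF minus CCF). Within slide 2 they were 1.33 (VCF minus Ctrl) and 0.91 (RCF minus Ctrl), and within slide 3 they were 0.95 (CCF minus Ctrl), 0.47 (CCF minus VCF) and -0.82 (RCF minus CCF). Within slide 3, Slc4a1 was -0.16 in VCF and -1.05 in RCF minus Ctrl, Epb42 -0.56 and -0.54, and Tspo2 -0.24 in RCF. Each such value rests on 1 array a group.

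With 1 array left out, member medians ran from 0.64 to 1.10 (VCF minus Ctrl), 0.18 to 0.78 (CCF minus Ctrl), 0.27 to 0.85 (RCF minus Ctrl), -0.93 to -0.19 (CCF minus VCF), -0.53 to -0.27 (RCF minus VCF) and -0.20 to 0.55 (RCF minus CCF). Epb42 ran from -0.12 to 0.74 in VCF, -0.32 to 0.68 in CCF and -0.14 to 0.73 in RCF minus Ctrl, Slc4a1 from -0.16 to 1.14 in CCF and -0.095 to 1.01 in RCF, and Tspo2 from -0.14 to 0.64 in CCF. The cause was not tested.

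With the replicate block, the member medians were 0.77, 0.53 and 0.28 for VCF, CCF and RCF minus Ctrl, and 6 probes passed in VCF minus Ctrl in place of 3. The best correlation of 7 of 14 arrays was with their own number. Probes past the threshold in VCF minus Ctrl ran from 0 to 16 with 1 array left out (16 without CCF replicate 1, when 10 passed in RCF minus Ctrl) and from 0 to 6 otherwise. Of the list medians under the alternatives, 767 stayed within the spread between replicates and 63 moved by more.

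Signal over background limits Epb42, Hbb-bh1, Rag1 and Fgb. In RCF minus VCF, with 4 lungs each, 58% of simulated differences of 1 (log2) were found. Those were put on probes drawn at random with independent noise, and the share for the members was not simulated.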
